A study of Mus musculus with 62 samples.

Results

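The 7 genes described here act in sterol export or are targets of the liver X receptor (LXR): Abcg5, Abcg8, Abca1, Abcg1, Mylip, Nr1h3 and Lpcat3. They were measured in mouse liver by RNA sequencing and taken by symbol from a table of gene counts, and all 7 of 7 passed the filter on low counts, among 16087 genes tested. Their Ensembl identifiers are, in that order, ENSMUSG00000040505, ENSMUSG00000024254, ENSMUSG00000015243, ENSMUSG00000024030, ENSMUSG00000038175, ENSMUSG00000002108 and ENSMUSG00000004270. The mice were male and of the inbred strain C57BL/6J. They came at 5 weeks of age and, per the labels, ate a Western diet (WD) for 12 weeks. Surgery followed at 17 weeks of age and was either sham or sleeve gastrectomy (SG), in which about 75% of the stomach is removed. Diets were assigned from postoperative day 7: some mice continued on WD, with 42% of calories from fat and 15.2% from protein, and others ate a diet with 20% of calories from fat and 36% (P36), 21% (P21) or 7% (P7) from protein. Chow-fed groups were also labelled, but the make-up of the chow and how long it was eaten are facts the labels do not give. The sham operation opened the abdomen without removing stomach, mice were housed in pairs, and no label names an engineered allele. Livers were taken 14 weeks after surgery, following a 16 h fast and 4 h of refeeding. Libraries numbered 8 for sham WD, 8 for SG WD, 5 for sham P36, 4 for SG P36, 7 for sham P21, 6 for SG P21, 7 for sham P7, 7 for SG P7 and 4 for sham chow. A single SG chow library entered no comparison.

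LXRs are nuclear receptors that bind oxysterols, which are oxidised forms of cholesterol, and act on DNA together with a retinoid X receptor. Loaded cells thereby switch on genes that move sterol out, while SREBP2, a factor held back by cholesterol, drives the genes of cholesterol synthesis and uptake. In the liver, ABCG5 and ABCG8 form a single transporter that passes sterol from the hepatocyte into bile. ABCA1 loads cholesterol and phospholipid onto lipid-poor apolipoprotein A-I, and ABCG1, abundant in macrophages, passes cholesterol to HDL particles. MYLIP, also called IDOL, is a ubiquitin ligase that sends the LDL receptor to degradation. LPCAT3 places polyunsaturated fatty acids in phosphatidylcholine, and Nr1h3 codes for LXRα itself.

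Values are CPM, read counts divided by the TMM-scaled total of the library in megareads. They are not divided by transcript length, so levels of different genes are not compared. Totals per library ran from 6990000 to 34010000 counts, with SG P21 library 4 the lowest and the next at 14030000. Counts behind the members ran from 23 for Abcg1 to 5863 for Nr1h3. Mitochondrial genes took 5.73% to 13.27% of counts, with 9.93% to 13.27% in sham chow and 6.14% to 9.81% in sham WD, ranges that do not overlap. Their part in the differences between those groups was not tested. The 10 hepatocyte markers were detected in every library, with Alb at a median of 61465 CPM. SG WD libraries 5 and 7 stood apart: Sqle, an enzyme of cholesterol synthesis and SREBP2 target, stood at 122 CPM in library 5 and 126 CPM in library 7. The other 6 libraries of that group lay between 0.512 and 7.77 CPM, the sham WD libraries between 0.942 and 2.93 CPM, and libraries of the lower-fat diets between 23.5 and 245 CPM. Member results that rest on SG WD are therefore given with and without these libraries. These are bulk samples, so fewer cells of a type and less RNA per cell cannot be told apart. Members are called changed at an adjusted p under 0.05 in edgeR's quasi-likelihood test with Benjamini-Hochberg adjustment over all 16087 genes, and ± gives the SE of a log2 fold change.

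Promoter windows from RefSeq (build GRCm38.p6, which is not the build of the count table) were matched for 6 of the 7 genes, in 8 windows, and Abcg1 was not among them. Abca1 and the Abcg5 and Abcg8 pair are shown because the pair has neighbouring starts while Abca1 holds the textbook LXR element. The LXR element is a direct repeat of 6-letter sites spaced by 4 bases. It was searched on both strands as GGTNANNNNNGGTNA, letters that were loosened with the Abca1 site known. A match was found in 0.718% of 32851 windows of 300 bases, and among the 8 windows of the members in that of Abca1 alone, where it read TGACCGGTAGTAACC on the printed strand, 67 to 53 bases before the start. The 250 bases before that start (chr4:53159896-53160145, minus strand) read, with the match in capitals:
Abca1: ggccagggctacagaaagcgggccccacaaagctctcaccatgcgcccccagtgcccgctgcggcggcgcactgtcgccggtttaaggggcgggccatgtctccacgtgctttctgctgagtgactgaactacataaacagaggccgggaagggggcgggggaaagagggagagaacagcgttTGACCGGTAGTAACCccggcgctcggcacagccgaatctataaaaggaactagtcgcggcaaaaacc
The start of Abcg5 and the nearer of the 2 Abcg8 starts lay head to head, 110 bases apart, on opposite strands. The other Abcg8 start, at position 84676302 of chromosome 17, lay farther from Abcg5. The 109 bases between them (chr17:84683012-84683120, plus strand) are printed with each GATAA, the letters read by GATA factors and searched on both strands, in capitals. There were 2 such matches, and among windows of the same length before each of the 32851 starts 0.788% held 2 or more.
Abcg5 and Abcg8: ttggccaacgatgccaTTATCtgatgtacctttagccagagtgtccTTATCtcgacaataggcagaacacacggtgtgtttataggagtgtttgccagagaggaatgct
A match describes these letters only, and no binding was measured.

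Sham mice on WD had more Abcg5, Abcg8, Abcg1 and Mylip transcript than sham mice on chow, a comparison of the Western diet with an ordinary one. Abcg1 changed most among the members, to a level 4.25-fold that on chow, and Abcg5 stood 2.5-fold higher. Abca1 and Nr1h3, the receptor gene, were not called. In all, 4 of 7 members rose, against 17.1% of all genes tested. The members' median log2 fold change was 0.62, and that of all genes -0.01.

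Abcg5 stood at 38.6, 46.5, 57 and 53.8 CPM in the chow libraries, and on WD at 86.4 to 174 CPM with a median of 121. Every WD library lay above every chow library. Its log2 fold change was 1.32 ± 0.29 (adjusted p = 0.000364). Abcg8, the partner subunit, stood at 54.5, 51.0, 48.7 and 46.8 CPM on chow and at 59.8 to 115 CPM on WD, with a median of 95.6. The ranges did not overlap here either, and the log2 fold change was 0.90 ± 0.25 (adjusted p = 0.00546).

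Abcg1 stood at 5.14, 4.95, 4.67 and 4.76 CPM on chow, against 9.89 to 28.7 CPM with a median of 23.2 on WD. The chow libraries were close together, and the lowest WD library held more than any of them. The log2 fold change was 2.09 ± 0.24 (adjusted p = 9.09e-09). Markers of other cells moved between the same groups. Of 10 macrophage markers 7 rose and 0 fell, their summed level running from 105 to 160 CPM on chow and from 218 to 1411 CPM on WD. The 1411 CPM was that of sham WD library 4, and the next highest was 585 CPM. Marco, one of the markers, averaged 87.7 CPM on WD with an SD of 232. It was not called (adjusted p = 0.0749 in edgeR's test). All 10 markers of lipid-associated macrophages rose. Of 8 stellate cell markers 5 rose, Col1a1 by 4.25 and Col3a1 by 3.12 on the log2 scale, and their sum ran from 74.3 to 160 CPM on chow and from 108 to 707 CPM on WD. Of 8 endothelial markers 2 rose and 1 fell. Of 10 hepatocyte markers 0 rose and 4 fell, Alb by -0.79, Serpina1a by -0.85, Cps1 by -0.95 and Tat by -1.46, with a sum of 102596 to 111253 CPM on chow and of 52975 to 88681 CPM on WD. The part of any of these cells in the differences of the members was not tested.

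Mylip stood at 7.10, 6.72, 7.96 and 8.09 CPM on chow and at 6.77 to 16.2 CPM on WD, with a median of 11.5. The ranges overlapped at the lower end of WD. Sham WD libraries 1 to 4 held 8.54, 9.77, 6.77 and 8.02 CPM, and libraries 5 to 8 held 13.1, 16.2, 13.5 and 15.5 CPM. The log2 fold change was 0.62 ± 0.20 (adjusted p = 0.0149). That call was lost without sham WD library 6 (adjusted p = 0.0571), sham WD library 8 (0.0501) or sham chow library 2 (0.05), and with the compared groups fitted alone (0.0545), in edgeR's test.

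Lpcat3 stood at 69.7, 64.0, 64.5 and 63.7 CPM on chow and at 59.7 to 118 CPM on WD, with a median of 92.4. Its log2 fold change of 0.46 ± 0.19 missed the threshold (adjusted p = 0.0554) and passed it with RLE scaling (0.0455), in DESeq2 (0.035) and without sham WD library 2 (0.0403). For Abca1 the log2 fold change was 0.15 ± 0.19 (adjusted p = 0.575), for Nr1h3 it was -0.14 ± 0.16 (adjusted p = 0.549), and for both the ranges overlapped.

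**Figure D1:**
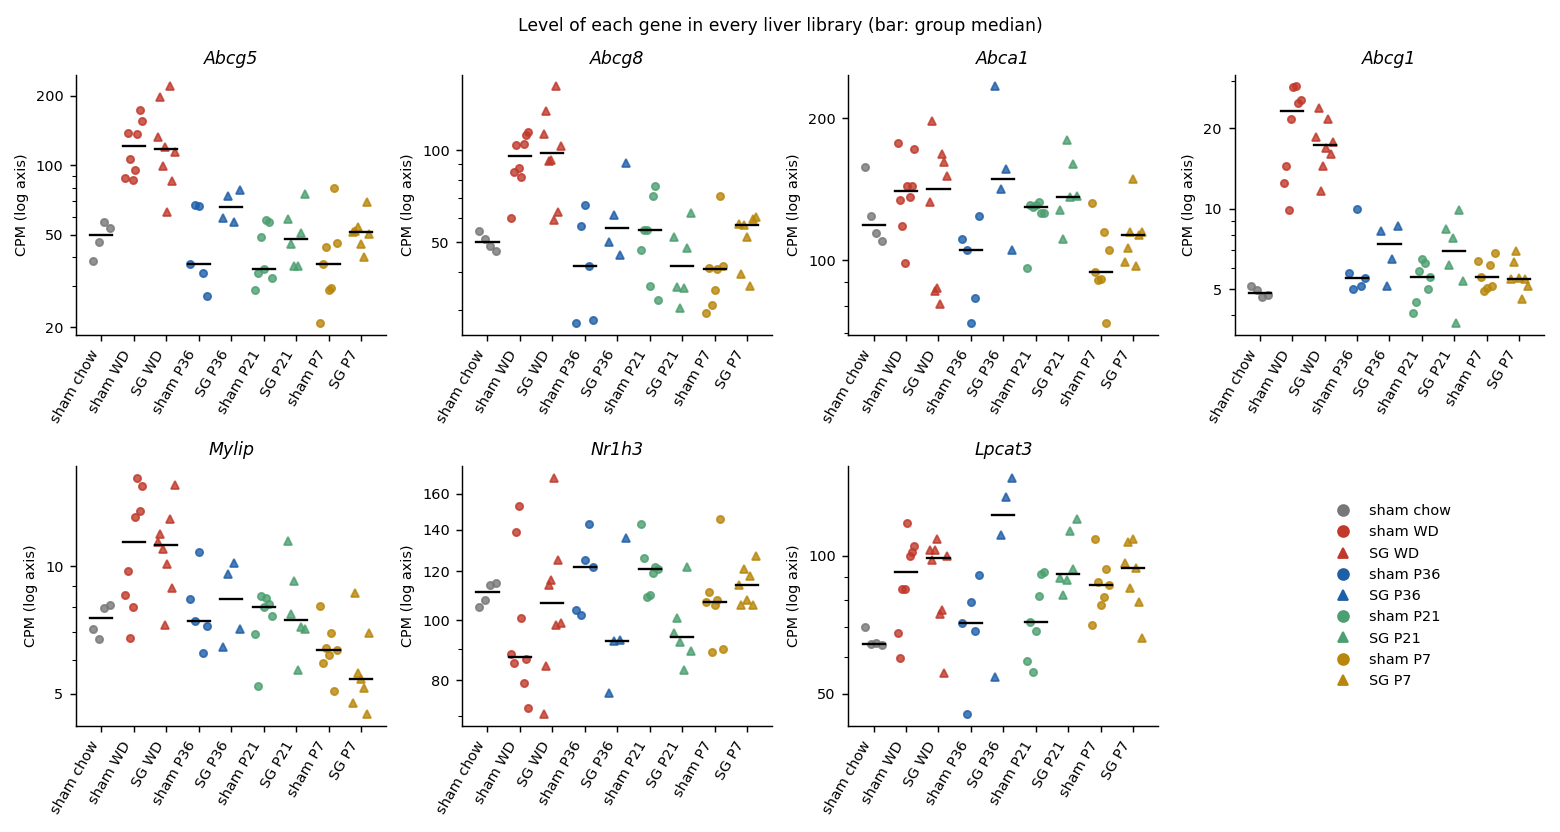
CPM on a log axis of each of the 7 genes in every library, by group, with circles for sham, triangles for SG and bars at group medians. Abcg5 and Abcg1 ran from 62.6 to 219 and from 9.89 to 28.7 CPM in the 16 WD libraries, and 29 and 35 of the 36 lower-fat libraries (20.8 to 79.8 and 3.73 to 10 CPM) lay below all of them, while Nr1h3, Abca1 and Lpcat3 overlap throughout.

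The same transcripts were lower in sham mice moved from WD to a lower-fat diet after surgery, on each of the 3 protein levels. Abcg5, Abcg8, Abcg1 and Mylip fell on P36, P21 and P7. Abca1 fell on P36 and P7. Thus 5 of 7 members fell on P36, where 10.9% of all genes did, 4 of 7 on P21 (17.8% of all genes) and 5 of 7 on P7 (18.4%). The 3 comparisons share the sham WD libraries and are not independent of each other or of the comparison with chow.

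Abcg5 stood at 37.4, 67.6, 66.4, 34.4 and 27.3 CPM on P36, at 29.0 to 58.1 CPM with a median of 35.5 on P21, and at 20.8 to 79.8 CPM with a median of 37.5 on P7. None of these libraries reached the lowest sham WD library. The log2 fold changes were -1.39 ± 0.27 (adjusted p = 0.000252), -1.53 ± 0.24 (2.72e-06) and -1.58 ± 0.24 (9.37e-07) in edgeR's test.

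Abcg8 stood at 27.1, 56.4, 66.0, 41.7 and 27.7 CPM on P36, at 32.4 to 76.6 CPM with a median of 54.8 on P21, and at 29.3 to 70.9 CPM with a median of 40.7 on P7. Each of these ranges overlapped that of sham WD, whose lowest library held 59.8 CPM. The log2 fold changes were -1.10 ± 0.24 (adjusted p = 0.001), -0.81 ± 0.21 (0.00229) and -1.18 ± 0.21 (2.2e-05) in edgeR's test.

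Abcg1 stood at 5.74, 5, 10, 5.16 and 5.49 CPM on P36, at 4.08 to 6.49 CPM with a median of 5.57 on P21, and at 4.92 to 6.80 CPM with a median of 5.54 on P7. P36 library 3, at 10 CPM, was the one of these 19 libraries that reached the WD range. The log2 fold changes were -1.72 ± 0.21 (adjusted p = 1.74e-07), -1.94 ± 0.19 (2.72e-10) and -1.86 ± 0.19 (1e-10) in edgeR's test. The summed macrophage markers, 218 to 1411 CPM on WD, stood at 157 to 306 CPM on P36, 143 to 284 CPM on P21 and 106 to 317 CPM on P7, and 5, 6 and 6 of the 10 markers fell.

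Mylip had log2 fold changes of -0.51 ± 0.18 on P36 (adjusted p = 0.0431), -0.59 ± 0.17 on P21 (0.00493) and -0.83 ± 0.17 on P7 (0.000105), with medians of 7.43, 8.01 and 6.34 CPM. Abca1 had -0.50 ± 0.18 on P36 (adjusted p = 0.0443), -0.17 ± 0.16 on P21 (0.442) and -0.49 ± 0.16 on P7 (0.0153), with medians of 105, 130 and 94.2 CPM against 140 on WD. For both genes every range overlapped that of WD. Without any of 10 of the 13 libraries compared, the Abca1 call on P36 was lost (adjusted p 0.0726 to 0.134 in edgeR's test). The Mylip call on P36 was lost without any of 9 of them (0.0558 to 0.153). Nr1h3 had log2 fold changes of 0.11 to 0.28 and Lpcat3 of -0.35 to -0.06, none called. Nr1h3 passed on P21 without sham WD library 3 (0.36, adjusted p = 0.0377) or library 4 (0.39, adjusted p = 0.0223).

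The fall was also seen after SG. Abcg5, Abcg8 and Abcg1 were lower on each lower-fat diet than in SG mice on WD, and Mylip was lower on P21 and P7. That made 3 of 7 members on P36 (10.1% of all genes fell), 4 of 7 on P21 (17.1%) and 4 of 7 on P7 (19.7%). These 3 comparisons share the SG WD libraries. The count of members was the same in each comparison without SG WD libraries 5 and 7.

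Abcg5 ran from 62.6 to 219 CPM with a median of 117 in SG WD. It stood at 58.9, 73.6, 57 and 78.4 CPM on P36, at 36.7 to 74.9 CPM with a median of 48.3 on P21, and at 40.1 to 69.2 CPM with a median of 51.7 on P7. SG WD library 5, at 62.6 CPM, was the one WD library inside the lower-fat ranges, and library 7 came next at 85.3 CPM. The log2 fold changes were -0.94 ± 0.28 (adjusted p = 0.0163), -1.35 ± 0.25 (8.84e-05) and -1.31 ± 0.23 (2.47e-05), and -1.09, -1.56 and -1.49 without libraries 5 and 7.

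Abcg8 ran from 59.0 to 162 CPM with a median of 98.1 in SG WD, with libraries 5 and 7, at 59.0 and 62.9 CPM, again the lowest. On P36 it stood at 50.2, 61.3, 45.5 and 91.1 CPM, on P21 at 30.5 to 62.4 CPM with a median of 41.6, and on P7 at 35.9 to 60.6 CPM with a median of 56.8. All 3 ranges overlapped that of WD. The log2 fold changes were -0.73 ± 0.25 (adjusted p = 0.0402), -1.22 ± 0.22 (8.03e-05) and -0.99 ± 0.21 (0.000257), and -0.87, -1.43 and -1.16 without libraries 5 and 7. On P36 the calls depended on single libraries: that of Abcg5 was lost without SG WD library 6 (adjusted p = 0.0545) or SG P36 library 3 (0.0718), and that of Abcg8 without any of 7 of the 12 libraries (0.0624 to 0.173) in edgeR's test.

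Abcg1 ran from 11.7 to 23.9 CPM with a median of 17.4 in SG WD. It stood at 8.24, 5.15, 6.46 and 8.63 CPM on P36, at 3.73 to 9.87 CPM on P21 and at 4.58 to 6.92 CPM on P7. None of the 17 lower-fat libraries reached the lowest WD library, and libraries 5 and 7, at 16.9 and 16.0 CPM, lay inside the range of their group. The log2 fold changes were -1.31 ± 0.23 (adjusted p = 6.04e-05), -1.33 ± 0.20 (4.04e-06) and -1.65 ± 0.19 (3.46e-09) in edgeR's test, and -1.30, -1.39 and -1.67 without libraries 5 and 7. The summed macrophage markers fell from 387 to 1508 CPM on WD to 202 to 876, 178 to 688 and 104 to 383 CPM. Those of lipid-associated macrophages ran from 613 to 1066 CPM on WD, and from 424 to 810, 368 to 586 and 362 to 528 CPM. The first sum overlapped that of WD on P36 and P21, the second on P36 alone, and Abcg1 on none of the diets. The part of these cells in the fall of Abcg1 was not tested.

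Mylip had log2 fold changes of -0.42 ± 0.20 on P36 (adjusted p = 0.143), -0.45 ± 0.17 on P21 (0.0438) and -0.93 ± 0.17 on P7 (2.8e-05), and -0.44, -0.55 and -0.99 without libraries 5 and 7. Its SG WD libraries ran from 7.25 to 15.6 CPM and its SG P7 libraries from 4.46 to 8.63 CPM. The call on P21 was lost without any of 7 of the 14 libraries compared (adjusted p 0.0506 to 0.119 in edgeR's test). Abca1, Nr1h3 and Lpcat3 were called on none of the diets, with log2 fold changes of -0.23 to 0.26, -0.17 to 0.06 and 0.02 to 0.32. Lpcat3 on P36 passed without SG P36 library 1 (0.55, adjusted p = 0.0267).

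**Figure D2:**
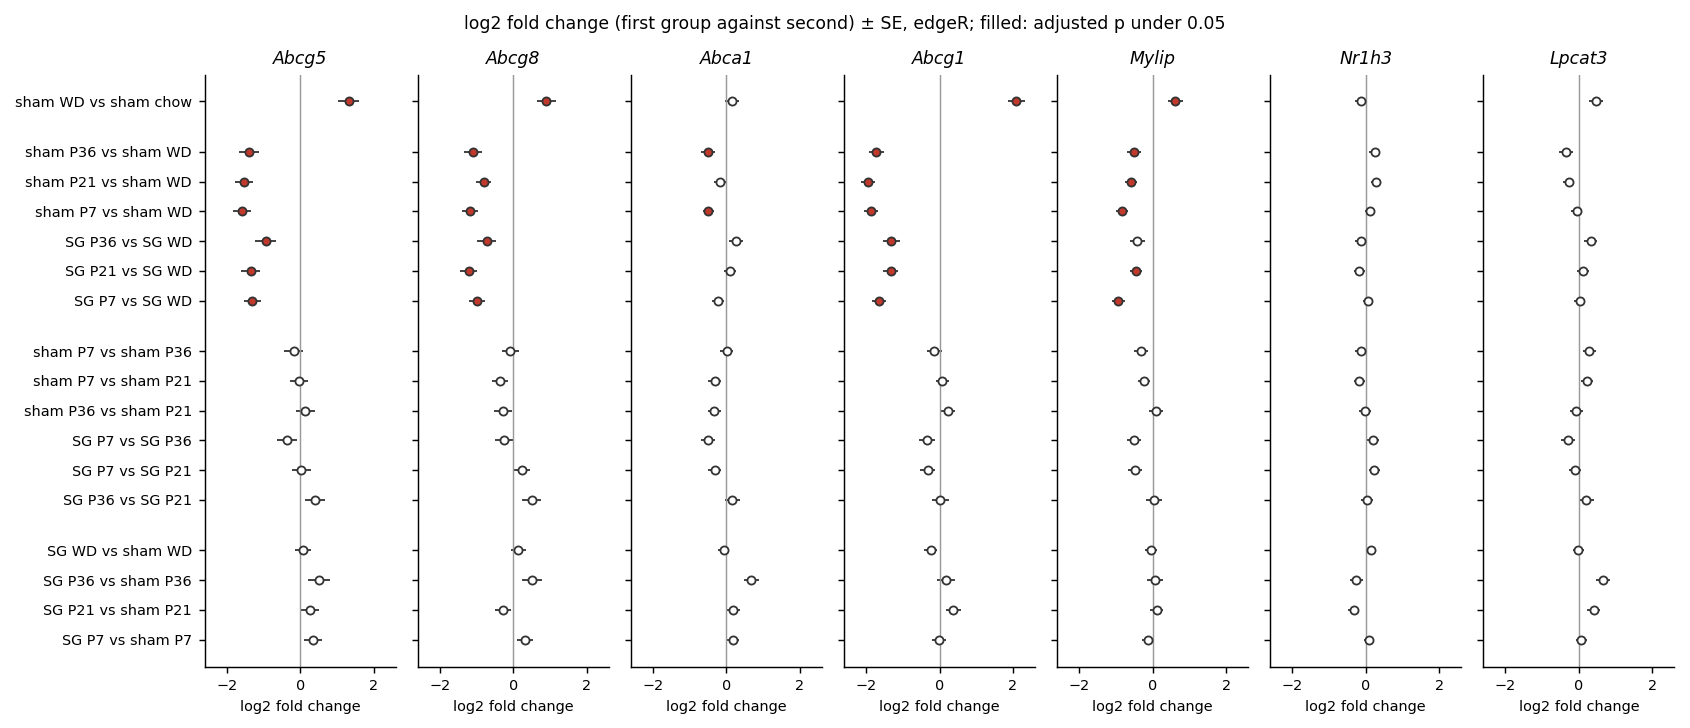
log2 fold change of the first group against the second, with bars of 1 SE, for each gene in the 17 comparisons; filled points passed an adjusted p of 0.05 in edgeR's test. Filled points lie in the comparisons with WD on one side and a lower-fat diet or chow on the other, and none lies among the protein diets or between SG and sham.

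Across all libraries on these diets, 15 of 16 WD libraries held more Abcg1 than the highest of the 36 lower-fat libraries, and 15 of 16 held more Abcg5. The count was 10 for Abcg8, 7 for Mylip, 2 for Nr1h3 and 0 for Abca1 and Lpcat3. By mean level, SG WD and sham WD came first for Abcg5 (129 and 122 CPM), and neither differed from the other beyond the spread. The lower-fat and chow groups followed in one run of overlapping ranges, from SG P36 at 67.0 CPM to sham P7 at 41.0 CPM. Abcg1 had the same shape, with sham WD at 20.7 CPM, SG WD at 17.6 CPM and the rest from 7.12 down to 4.88 CPM in sham chow. For Nr1h3 the order ran from sham P21 at 122 CPM to SG P21 at 97.3 CPM, and each neighbour overlapped the next.

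The protein content of the lower-fat diet moved none of the 7 members past the threshold. In sham mice, 0 of 7 were called for P7 against P36 (15.7% of all genes were), 0 for P7 against P21 (26.3%) and 0 for P36 against P21 (0.087%). In SG mice, 0 were called for P7 against P36 (18.8% of all genes), 0 for P7 against P21 (9.7%) and 0 for P36 against P21 (7.69%). At an unadjusted p under 0.05 the counts were 0, 0, 0, 2, 1 and 0 in that order. The 2 were Abca1 and Mylip for P7 against P36 after SG, with log2 fold changes of -0.49 ± 0.19 (adjusted p = 0.0644) and -0.51 ± 0.20 (0.062). Mylip stood at 6.44, 9.61, 10.2 and 7.11 CPM in SG P36, and at a median of 5.40 CPM in SG P7. The ranges overlapped. Leaving out single libraries brought up to 2 members past the threshold, Mylip without SG P7 library 2 (-0.63, adjusted p = 0.0217) among them, and for P7 against P21 in sham mice Abca1 without sham P7 library 2 (-0.44, adjusted p = 0.0446). Neither DESeq2 nor limma-voom called a member in these 6 comparisons.

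Surgery was tested on each diet as SG against sham, which asks what the operation adds at the same food. No member was called on WD (2.34% of all genes were), on P36 (2.22%), on P21 (8.52%) or on P7 (0%). On P7 edgeR's test called 0 genes, with 681 at an unadjusted p under 0.05, and DESeq2 called 7. The test of whether the surgery effect differed between the 4 diets called no member either (0.87% of all genes), with a lowest adjusted p of 0.285. On WD the members' log2 fold changes lay between -0.24 and 0.13 with SEs of 0.13 to 0.22. Without SG WD libraries 5 and 7 they lay between -0.21 and 0.30.

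On P36 Abca1 stood at 111, 105, 73.6, 83.2 and 124 CPM in sham libraries and at 234, 142, 156 and 105 CPM after SG. Of the SG libraries, 3 lay above every sham library, and the other lay among them. The log2 fold change was 0.68 ± 0.21 (adjusted p = 0.0641), and DESeq2 gave an adjusted p of 0.038. Lpcat3 stood at 71.3, 45, 79.2, 68.3 and 90.6 CPM in sham libraries and at 54.4, 111, 134 and 148 CPM after SG. Here too 3 SG libraries lay above the sham range, and the log2 fold change was 0.66 ± 0.20 (adjusted p = 0.0693; 0.0468 in DESeq2). Without SG P36 library 1, the lowest for Lpcat3 and the highest for Abca1, the edgeR adjusted p for Lpcat3 was 0.00828. Without library 4, the lowest for Abca1, the edgeR adjusted p for Abca1 was 0.0347. Leaving out any other single library, library 1 among them, did not bring Abca1 past the threshold. Library 1 also held 127 CPM of summed adipocyte markers, against 8.34, 3.98 and 2.4 CPM in the other SG P36 libraries. The sham P36 libraries held 15.4 to 71.6 CPM. Of these markers, Cidec averaged 38.5 CPM in sham P36 and 9.93 CPM in SG P36. Adipoq averaged 0.359 and 8.79 CPM (SD 16.8 in SG P36), and Plin1 0.176 and 5.4 CPM (SD 10.5). None of these was called between these groups. The summed macrophage markers of SG P36 library 1, 876 CPM, were the highest of its group. The part of these cells in its Abca1 and Lpcat3 values was not tested. In the authors' deposited table the log2 fold changes on P36 were 0.6347 for Abca1 (adjusted p = 0.105) and 0.5881 for Lpcat3 (adjusted p = 0.156), and no member passed 0.05 on any of the 3 diets it covers.

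On P21, where 2 of the 10 macrophage markers were higher after SG, the members' log2 fold changes lay between -0.32 ± 0.15 for Nr1h3 (adjusted p = 0.169) and 0.40 ± 0.17 for Lpcat3 (adjusted p = 0.131). Both passed when the P21 groups were fitted alone (0.0357 and 0.0466). Nr1h3 stood at 109 to 143 CPM with a median of 121 in sham P21 and at 83.0 to 122 CPM with a median of 93.8 in SG P21, with overlapping ranges.

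The ratio of the transcripts for the ABCG5 and ABCG8 subunits differed between some groups. Within a library the ratio does not depend on scaling. Abcg8 CPM divided by Abcg5 CPM had a median of 0.755 in sham WD (0.616 to 1.01) and 0.814 in SG WD (0.679 to 0.943). Against SG WD the log2 ratio differed by 0.14 on P36, 0.09 on P21 and 0.28 on P7, and by 0.16, 0.10 and 0.29 without SG WD libraries 5 and 7, with none called. In sham P21 it was 1.22 (0.991 to 1.62), in sham P7 1.09 (0.7 to 1.41), and in the sham P36 libraries 0.725, 0.835, 0.995, 1.21 and 1.02. The mean log2 ratio was 0.69 higher in sham P21 than in sham WD, and 7 of 7 P21 libraries lay above the WD median (exact two-sided permutation test, p = 0.00109, adjusted p = 0.0185 over 17 comparisons). After SG it was lower on P21 than in sham mice, by -0.53 on the log2 scale (exact two-sided permutation test, p = 0.00233, adjusted p = 0.0198). All 6 SG P21 libraries, from 0.778 to 0.956, lay below all 7 sham P21 libraries. Without SG P21 library 2 that difference was -0.50 and missed the threshold (exact permutation test, adjusted p = 0.0537). The other 15 comparisons were not called. With 4 chow libraries of 1.41, 1.10, 0.855 and 0.869, WD against chow gave -0.42 (exact permutation test, p = 0.0424, adjusted p = 0.129).

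**Figure D3:**
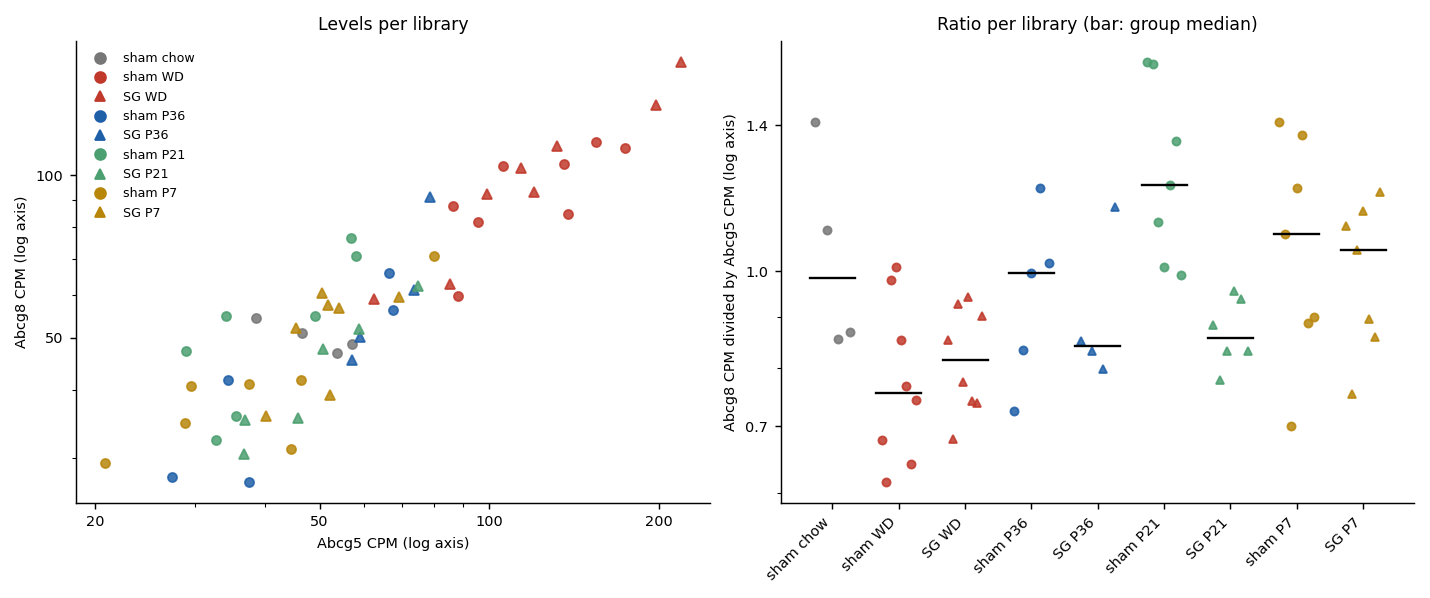
Left, Abcg8 against Abcg5 CPM per library on log axes; right, their ratio per library by group, with bars at medians. The WD groups have the lowest median ratios (0.755 and 0.814), and sham P21 has the highest (1.22).

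Within some groups, libraries with more Abcg5 also held more Abcg8. Over the 8 SG WD libraries Pearson's r of CPM was 0.96 (exact permutation p = 0.000694, adjusted p = 0.00833 over 12 relations) and Spearman's rho 0.98 (exact p = 0.000397), and r was 0.91 without the 2 libraries farthest from the median of Abcg5. Over the 6 SG P21 libraries r was 0.96 (exact permutation p = 0.00139, adjusted p = 0.00833) and rho 1.00 (exact p = 0.00278), with 0.89 without 2. In sham WD, sham P21, sham P7 and SG P7 r was 0.72, 0.78, 0.81 and 0.61, with adjusted p from 0.0805 to 0.23 by exact permutation. Without 2 libraries it was 0.75, 0.39, -0.08 and -0.01, so that in the last 3 groups the relation rests on those libraries.

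Sterol synthesis moved opposite to these exporters between diets. Of 20 SREBP2 targets, 19 fell on WD against chow in sham mice, with a median log2 fold change of -2.79, where 14.5% of all genes fell. Against WD 20, 20 and 19 rose on P36, P21 and P7, where 7.28%, 14.4% and 17.3% of all genes did. Stard4, a sterol carrier, stood at a log2 fold change of -2.13 ± 0.22 on WD against chow (adjusted p = 1.33e-09), and Sqle fell from 93.7 to 1.89 CPM on average. After SG on WD, 13 of the 20 were higher than in sham mice (1.88% of all genes were) and the median was 1.60, but without SG WD libraries 5 and 7, an alternative chosen after the data were seen, 0 were and the median was -0.03. Against SG WD, 6, 16 and 16 of the 20 rose on P36, P21 and P7 (6.7%, 12.4% and 14.2% of all genes did), and 20, 19 and 20 without those libraries. Those 2 libraries, with Sqle at 122 and 126 CPM, had the 2 lowest Abcg5 and Abcg8 values of their group and summed macrophage markers of 1508 and 1418 CPM, the highest of it. Their Abcg1 values stayed inside the WD range.

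**Figure D4:**
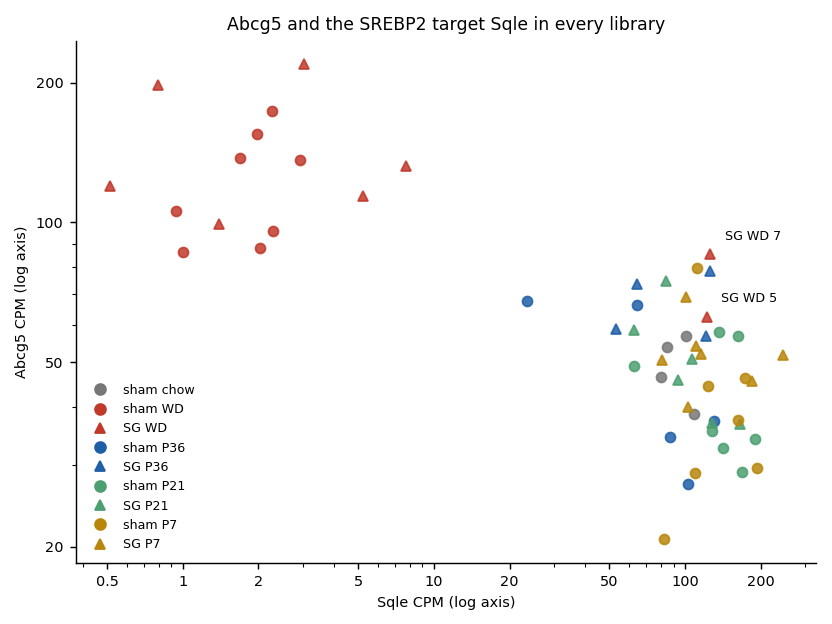
Abcg5 against Sqle CPM in every library, both on log axes. The WD libraries lie at the upper left, apart from SG WD libraries 5 and 7, whose Sqle (122 and 126 CPM) lies among the lower-fat and chow libraries.

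Other genes described as LXR targets followed the 7 members in part. Of 15 tested, 7 rose and 0 fell on WD against chow, with a median log2 fold change of 0.72 beside -0.01 for all genes. Of all genes 17.1% rose and 14.5% fell. Scd1, which desaturates fatty acids, had 2.89 ± 0.43 (adjusted p = 1.71e-06), and Srebf1, the gene of the lipogenic factor SREBP1, 1.92 ± 0.33 (adjusted p = 1.37e-05). Arl4c, a small GTPase, had 1.78 ± 0.29 (adjusted p = 7.35e-06) and lipoprotein lipase, Lpl, 2.29 ± 0.39 (adjusted p = 1.48e-05). Against sham WD, 6 fell and 1 rose on P36, 7 fell and 1 rose on P21, and 10 fell and 2 rose on P7. On these diets 10.9%, 17.8% and 18.4% of all genes fell and 7.28%, 14.4% and 17.3% rose. The gene that rose on each of them was Cyp7a1, the first enzyme of bile acid synthesis (1.75, 1.12 and 1.20), and on P7 Mlxipl, the gene of the carbohydrate-responsive factor ChREBP, also rose (0.57). After SG, 4 fell on P36, 7 on P21 and 11 on P7 against SG WD, with 1 rise each: Fasn, fatty acid synthase, on P36 (1.80, and 2.14 without SG WD libraries 5 and 7) and Mlxipl on P21 (0.70) and P7 (0.77). Of all genes 10.1%, 17.1% and 19.7% fell there and 6.7%, 12.4% and 14.2% rose. Without SG WD libraries 5 and 7 the falls among the 15 numbered 3, 6 and 10, and 0 of the 15 rose on P21.

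For P7 against P36 after sham surgery, 3 of the 15 fell, namely Scd1 (-2.04), Srebf1 (-1.18) and Fasn (-1.16), and Mlxipl rose (0.79), where 15.7% of all genes were called. After SG, 5 fell, namely Fasn (-2.31), Srebf1 (-1.85), Scd1 (-1.62), Scd2 (-1.53) and Lpl (-1.32), and Mlxipl rose (0.83), where 18.8% of all genes were called. Between SG and sham, Lpl rose on P21 (1.08 ± 0.32, adjusted p = 0.0293) and Pltp, the phospholipid transfer protein, fell on P36 (-1.49 ± 0.33, adjusted p = 0.0081), while 0 of 15 were called on WD and P7. Of all genes 8.52% were called on P21, 2.22% on P36, 2.34% on WD and 0% on P7. Lpl and Cd5l are also made by macrophages, and Lpl is itself among the markers of lipid-associated macrophages. For P7 against P36 after SG, where Lpl fell, Adgre1 (-1.28 ± 0.45) was the only macrophage marker called. The others were lower without being called. Between SG and sham on P21, where Lpl rose, some macrophage markers were called higher and most were not. The part of these cells in the differences of Lpl was not tested.

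The other LXR, the retinoid X receptors and cofactors made a list of 8 genes. In sham mice 0 were called for WD against chow, where 17.1% of all genes rose and 14.5% fell. Nor was any on P36 or P7 against WD (10.9% and 18.4% of all genes fell, 7.28% and 17.3% rose). Rxra alone rose on P21 (0.44), where 14.4% of all genes rose and 17.8% fell. Against SG WD, those called included Rxrb on P36 (-0.32) and P21 (-0.52), Nr1h2 on P21 (-0.69) and Ncor1 on P7 (0.33). There 10.1%, 17.1% and 19.7% of all genes fell and 6.7%, 12.4% and 14.2% rose. After SG on P21, Rxrb (-0.47 ± 0.11, adjusted p = 0.00453), Rxra (-0.63 ± 0.17, adjusted p = 0.0153) and Ncoa1 (-0.38 ± 0.13, adjusted p = 0.0497) fell against sham P21. On that diet 8.52% of all genes were called. Among 6 genes of oxysterol enzymes, Cyp39a1 and Cyp27a1 fell on WD against chow (-1.46 and -0.78) and rose on every lower-fat diet against WD, after sham surgery (1.38, 1.36 and 1.82 for Cyp39a1) and after SG (2.41, 1.4 and 2.62, and 2.45, 1.39 and 2.64 without SG WD libraries 5 and 7). Ch25h, cholesterol 25-hydroxylase, rose on WD against chow (2.43 ± 0.88, adjusted p = 0.0293) from a mean of 0.0451 to 0.261 CPM.

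Of 11 further genes of sterol handling, 2 rose and 3 fell on WD against chow, where 17.1% of all genes rose and 14.5% fell. Soat1, the cholesterol ester synthase of macrophages, rose (1.97) and so did Npc2, a lysosomal sterol carrier (0.67), while Abcb11, the bile salt pump (-0.63), Lcat (-0.49) and Soat2, the ester synthase of hepatocytes (-0.48), fell. Soat2 then rose on P7 against WD by 2.08 ± 0.16 in sham mice (adjusted p = 5.02e-14) and by 2.04 ± 0.16 in SG mice (adjusted p = 2.04e-13), and by 1.99 without SG WD libraries 5 and 7.

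Within groups, Abcg1 was set against the summed macrophage markers in 6 relations. Over the 6 SG P21 libraries r was 0.91 (exact permutation p = 0.0167, adjusted p = 0.0667), rho was 0.89 (exact p = 0.0333), and r was 0.96 without 2. Over the 8 sham WD libraries r was 0.69 (exact permutation p = 0.0525, adjusted p = 0.0922) and 0.95 without 2, since library 4 held 1411 CPM of markers. In SG WD r was 0.11, and 0.69 without 2 libraries. In sham P21, sham P7 and SG P7 it was 0.42, 0.50 and 0.58, and 0.05, 0.31 and 0.33 without 2. None of the 6 relations passed after adjustment, with a lowest adjusted p of 0.0667 by exact permutation. The relation of Abcg1 with the markers of lipid-associated macrophages within groups was not tested.

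**Figure D5:**
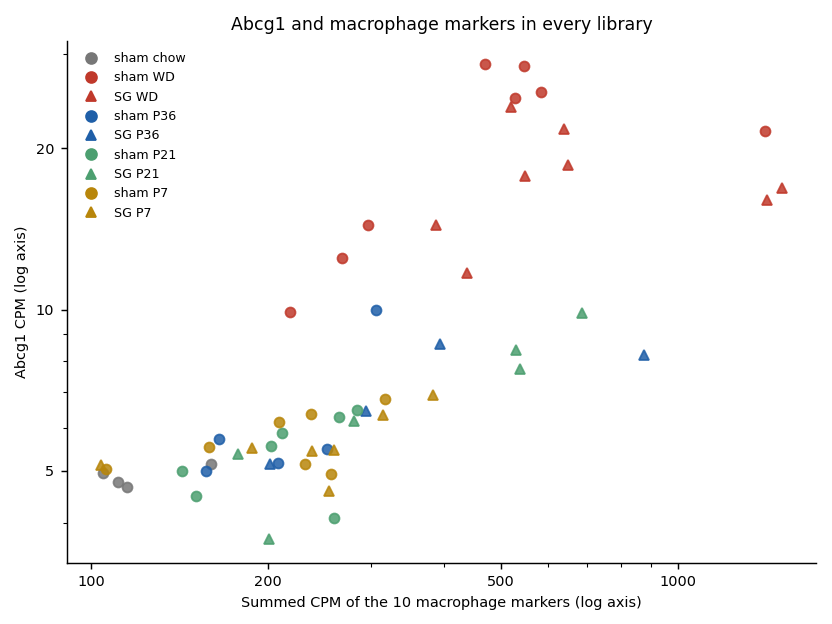
Abcg1 CPM against the summed CPM of 10 macrophage markers in every library, both on log axes. WD libraries hold 9.89 to 28.7 CPM of Abcg1. SG P21 and SG P36 libraries run up to 688 and 876 CPM of markers, and up to 9.87 and 8.63 CPM of Abcg1. Markers of lipid-associated macrophages are not in this sum, and the part of these cells was not tested. The SG P36 library at 876 CPM also held the highest summed adipocyte markers of its group (127 CPM).

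The genes whose log2 CPM over the 56 libraries was most like each member were sought among 10795 genes, as a description over libraries that share diet groups. For Abcg5 these were Abcg8 (r = 0.91), Entpd2, an ecto-ATPase (0.81), and Abcg1 (0.80), and for Abcg8 they were Abcg5 (0.91), Man2b1, a lysosomal mannosidase (0.76), and Entpd2 (0.74). Abcg1 was most like Mcm3, of the replication helicase (0.93), Ubd, a ubiquitin-like protein (0.93), and Ppt1, a lysosomal thioesterase (0.92). Mylip was most like Clec14a, a gene of endothelium (0.82), Ifit2 (0.78) and Ccdc80 (0.78), and stood at 0.76 with Abcg1. Lpcat3 had no close match, the best being Acsl5, an acyl-CoA synthetase (0.63).

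Abca1 and Nr1h3 went with other genes. Abca1 was most like Vcpip1 (0.83), Tnks (0.81) and Kif5b (0.81), and Nr1h3 most like Snrpa (0.80), Ccdc97 (0.80) and Rbm10 (0.79). Between Abca1 and Nr1h3 r was -0.60, at position 10520 of the 10795 genes ranked from most to least like Abca1. The longest transcript was 10262 bases for Abca1, 9749 for Vcpip1, 9163 for Tnks and 6032 for Kif5b, and 1985 for Nr1h3, 1690 for Snrpa, 3032 for Ccdc97 and 3698 for Rbm10. Among the members, Nr1h3 was the shortest and had the lowest r with the score described next, and Abca1 was the longest with the highest. Abcg5 with 2351 bases and Lpcat3 with 2373 had r near 0. Mylip with 3065 bases had a higher r (0.38) than Abcg8 with 3667 (0.03) or Abcg1 with 5832 (0.13). A score of each library, its mean log2 deviation of 1570 long less that of 1572 short transcripts, was added after the data were seen. Its r with Abca1 was 0.67, and 0.69 with group means removed, against -0.47 and -0.54 for Nr1h3, 0.38 and 0.50 for Mylip, -0.04 and -0.07 for Abcg5, and -0.06 and -0.06 for Lpcat3. Group medians of the score ran from -0.13 in sham P36 to 0.14 in SG P36, the groups between which Abca1 came close to the threshold. Its part in that difference was not tested.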

How the data were processed

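The members and gene lists were chosen with earlier results of these data known. Liver mRNA was sequenced with a stranded kit and paired 150-base reads, per the labels. The authors deposited expected counts per gene for 57 of 62 labelled mice, and the other 5 were not analysed here. The build was GRCm39, per the submitters' processing notes. The authors' deposited table also holds log2 fold changes, p-values and F scores for the surgery effect on the 3 lower-fat diets.

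The expected counts were rounded (3.34% were fractional), filtered with filterByExpr and scaled by TMM. One quasi-likelihood model of 9 groups was fitted to 56 libraries in edgeR 4.0.16 (R 4.3.3), with 47 residual degrees of freedom, and was tested on simulated data. Benjamini-Hochberg adjustment ran over 16087 genes in each of 17 comparisons and a surgery by diet interaction. SE is the log2 fold change over the root of F. Log2 CPM used a prior count of 2. Ratios were tested by exact permutation in scipy 1.17.1. Among 156 pairs of libraries within groups, the lowest chi-square per degree of freedom was 10.1, so none was counted as a repeat. Named genes were the members, up to 4 genes of each other list with the lowest adjusted p, those needed to name every count of 5 or fewer, and the 3 most alike genes per member (mean log2 CPM of at least 1). Fasn, Mlxipl, Cyp27a1 and Sqle were also named after their values were seen. Alternatives were DESeq2 1.42.0, limma-voom (limma 3.58.1), RLE scaling, no filter, the compared groups alone and single libraries left out. One result on a listed gene is not reported here.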

Additional observations from a re-analysis of the deposited data

Results flagged for a closer look

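Among 72 sets of values, 63 of a gene in a group and 9 of the Abcg8 to Abcg5 ratio in a group, 6 single libraries lay far from the rest of their group, and chance flags about 1 in 20 groups. Abcg8 stood at 70.9 CPM in sham P7 library 7, where the nearest other library held 41.7. Abca1 stood at 96.1 CPM in sham P21 library 1, below the next at 126, and at 149 CPM in SG P7 library 4, above the next at 115. Abcg1 stood at 10 CPM in sham P36 library 3, against 5.74 in the next. Mylip stood at 5.20 CPM in sham P21 library 2, below the next at 6.90. Lpcat3 stood at 69.7 CPM in sham chow library 1, against 64.5 in the next.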

How the results depend on the processing

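No member's called value changed sign. Of 126 member results, DESeq2 left 123 on their side of the threshold, RLE scaling 125, limma-voom 124, no filter 122 and the compared groups alone 118. Members called numbered 3 without the filter for sham P36 against WD (5 in the fit reported), 1 with the compared groups alone for SG P36 against WD (3), 2 in DESeq2 for SG against sham on P36 (0) and 2 with the compared groups alone on P21 (0). Leaving out single libraries gave 3 to 5 members for sham P36 against WD, 1 to 3 for SG P36 against WD, 0 to 1 for P7 against P21 after either operation and for SG against sham on P36, and 0 to 2 for SG P7 against P36.

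All genes called for sham P36 against P21 numbered 14, and 62 with the compared groups alone, 4 in limma-voom and 37 in DESeq2. With the compared groups alone, SG P36 against WD gave 633 (2700), SG against sham 104 on P36 (357), 2354 on P21 (1370) and 2 on WD (376), where limma-voom gave 100 and leaving out SG WD libraries 5 and 7 gave 66. Without the filter SG P7 against P21 gave 1021 (1561) and SG against sham on P21 868. On P7 limma-voom called 1 and DESeq2 7 (0). The interaction gave 140, and 70 without the filter, 54 in limma-voom, 498 in DESeq2 and 415 without libraries 5 and 7. Leaving out single libraries gave 4 to 24 for sham P36 against P21, 1422 to 2946 for SG P36 against WD, 944 to 1637 for SG P7 against P21, 643 to 1378 for SG P36 against P21, 167 to 522 for SG against sham on WD, 169 to 561 on P36, 0 to 1 on P7 and 47 to 404 for the interaction. The log2 ratio of Abcg8 to Abcg5 differed by 0.37 to 0.54 for sham P7 against WD, 0.23 to 0.35 for SG P7 against WD and -0.58 to -0.46 for SG against sham on P21. The causes were not tested. No paired analysis was possible because the replicate numbers only name libraries in accession order. SG P36 held 4 libraries and sham chow 4, which limits the comparisons with them.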

Other observations

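The single SG chow library, which entered no comparison and was scaled together with all 57 libraries, held 69.9 CPM of Abcg5, 63.2 of Abcg8, 112 of Abca1, 5.01 of Abcg1, 7.09 of Mylip, 135 of Nr1h3 and 61.8 of Lpcat3. Its Abcg5, Abcg8 and Nr1h3 values lay above those of all 4 sham chow libraries, and its Sqle stood at 72.3 CPM.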
